A study of Bos taurus with 96 samples.

Results

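Skeletal muscle was compared between mid lactation (ML, day 147 after calving) and late pregnancy (LP, day -18) within the same 16 Holstein cows. The libraries were chosen by their labels alone, as muscle libraries of these time-points, which gave 32 of the 96 libraries of the series, 16 at LP and 16 at ML. The other libraries are 16 of muscle at early lactation (EL, the day after calving) and 48 of liver. Of the 16 cows, 8 had good (Fert+) and 8 poor (Fert-) genetic merit for fertility, and both groups were pooled here, with every cow acting as its own control. All cows were carrying a calf at LP, and none was bred again in that lactation, so that they were lactating and not pregnant at ML. Pregnancy, lactation, season and cow age all changed between the biopsies and cannot be told apart. The biopsies were punch cores of the semitendinosus, a muscle of the hind limb. They were whole tissue, so that fewer cells of a type and less RNA per cell cannot be told apart.

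Muscle is the largest store of protein in a cow and a major site of insulin-dependent glucose uptake. Around calving, muscle protein can be broken down through the ubiquitin-proteasome system, whose ligases in muscle include those encoded by FBXO32 (atrogin-1) and TRIM63 (MuRF1). Muscle then also shifts its fuel from glucose to fatty acids through kinases such as PDK4. Fast fibres rest on glycolysis and on fast isoforms of myosin, troponin and the calcium pump, and slow fibres on oxidative metabolism and myoglobin.

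Libraries held between 15279337 and 21422737 counted read pairs at LP and between 15795921 and 22018740 at ML. The 13 identifiers of the skeletal muscle marker list were all above 1 CPM (a gene's counts as parts of a library size adjusted with TMM factors, with no account of gene length) at the median, and summed to 172645 to 269233 CPM at LP and 232947 to 313926 CPM at ML. Gene symbols were known for 2161 identifiers, those that are abundant or that the study listed as differing between genotypes, so that the named genes are not a random draw. In 3 cows a muscle library counted genes that nearly all other libraries did not (at least 3 of 19 such genes), and these libraries are called the second counting batch. The name is a shorthand: no label gives a batch, and the 19 genes were picked from these counts. The LP library of cow 33 counted 3 of them, so its place rests on the cut-off. The other LP and ML libraries of this kind counted 12 to 14. In all tests below edgeR's quasi-likelihood test was used with cow as a block, p-values were adjusted over all genes by Benjamini-Hochberg, and a gene was called differentially expressed (DE) at an adjusted p under 0.05.

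Of 11980 genes tested, 1953 (16.3%) were DE, 965 (8.06%) higher and 988 (8.25%) lower in ML. The changes were mostly small: 73 genes (0.609%) differed by at least 2-fold, 27 higher (0.225%) and 46 lower (0.384%), and the median log2 fold change over all genes was 0.01. In 82 genes (0.684%) the level was lower in ML in 16 of 16 cows, and in 44 (0.367%) it was higher in 16 of 16. Among the 1554 tested identifiers with a symbol 384 (24.7%) were DE, 175 (11.3%) higher and 209 (13.4%) lower, and the lists below are read against these shares. Cows 430 (Fert+) and 996 (Fert-) stood apart. Of the genes called without it, each of the other 14 cows moved between 69.1% and 90.3% in the called direction, but cow 996 moved 55.5% and cow 430 moved 47.2%. Without these 2 cows, a choice made after seeing the data, 2895 genes were DE (1380 higher and 1515 lower). With all 48 muscle libraries in a single fit 1120 were DE, and without the 3 cows of the second counting batch 1159. The latter fit has fewer cows by construction. With all 16 cows kept and counting batch as a term, 1923 were DE.

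**Figure D1:**
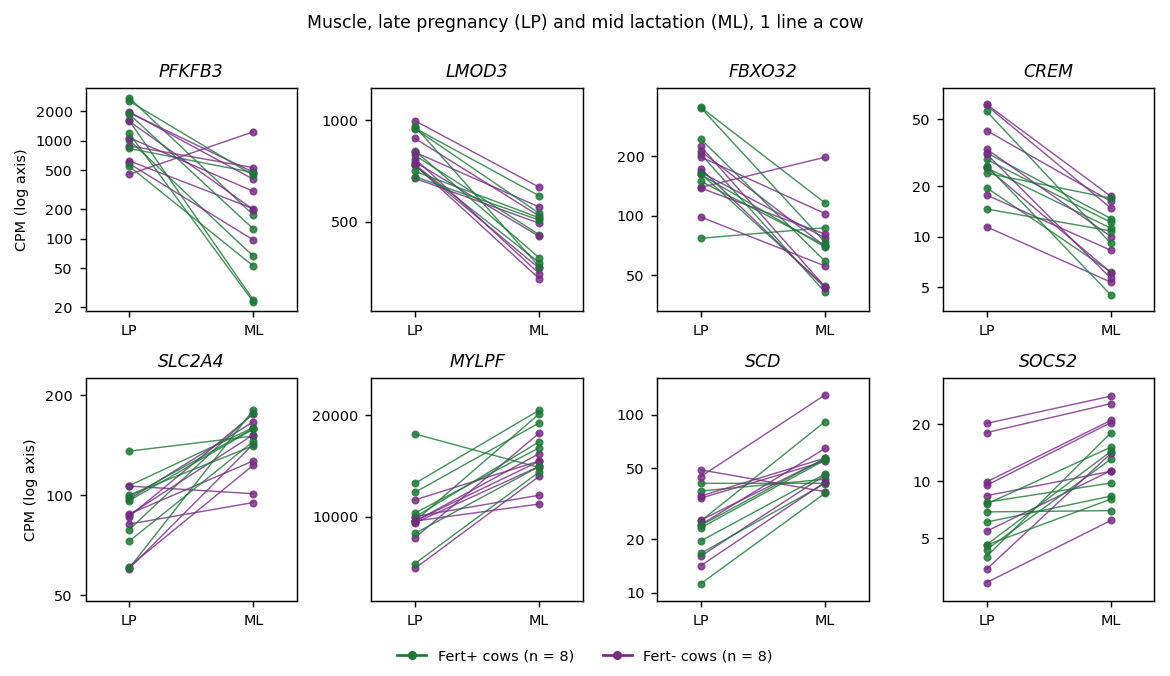
Level of 8 genes in muscle of each cow at LP and ML, in CPM on a log axis, with 1 line a cow and the fertility groups in green (Fert+, n = 8) and purple (Fert-, n = 8). LMOD3 and CREM fell in 16 of 16 cows and SOCS2 rose in 16 of 16, while in PFKFB3 and FBXO32 1 and 2 cows moved against the others.

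The gene with the smallest adjusted p among those with a symbol was LMOD3 (ENSBTAG00000021508), which encodes leiomodin 3, a nucleator of the thin filaments of skeletal muscle. Its level was 672 CPM in the lowest, 778 in the median and 996 in the highest LP library, and 339, 476 and 633 CPM at ML. Every ML library was below every LP library, which was true of no other gene tested (1 of 11980, 0.00835%). The log2 fold change was -0.81 (standard error 0.07, adjusted p = 1.24e-06), and it was -0.83 in Fert+ and -0.80 in Fert- cows.

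Genes of fast fibre proteins were among those that rose. Of 34 tested members of the myosin and fibre protein list 11 were higher in ML (32.4%, against 11.3% of identifiers with a symbol) and 4 lower (11.8%, against 13.4%). The median log2 fold change was 0.16. Those higher were the fast fibre genes MYLPF, MYL1, MYH1, TNNC2, TNNI2, TNNT3, MYBPC2 and ATP2A1, with ACTA1, TPM1 and CKM, which are used in all fibres or more in fast ones. MYLPF, the fast regulatory light chain of myosin, was at 7005 CPM in the lowest, 9693 in the median and 17607 in the highest LP library and at 10894, 14620 and 20723 CPM at ML. It rose in 15 of 16 cows, the highest LP library was that of cow 430, and 4 ML libraries lay above it. Its log2 fold change was 0.61 (standard error 0.09, adjusted p = 9.35e-05). MYL1, the fast essential light chain, rose by 0.45 on the log2 scale (standard error 0.09, adjusted p = 0.00211) and the fast myosin heavy chain MYH1 by 0.33 (standard error 0.08, adjusted p = 0.00541), although MYH1 belongs to a cluster of near-identical genes and its counts depend on how shared reads were placed. The fast troponins TNNC2 and TNNT3 each rose by 0.30.

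The members that fell were MB, MYLK2, TPM3 and MYBPC1, a share no larger than among all identifiers with a symbol. MB, the oxygen store myoglobin, was at 6486 CPM in the lowest, 9906 in the median and 14473 in the highest LP library and at 4924, 7116 and 9407 CPM at ML. The groups overlapped, with 6 of 16 ML libraries below the lowest LP library, and MB fell in 14 cows (log2 fold change -0.51, standard error 0.09, adjusted p = 0.000585). TPM3, the slow tropomyosin, fell by 0.33 on the log2 scale (standard error 0.10, adjusted p = 0.0284). Several slow fibre genes did not pass the test: the identifier of MYH7 with the higher counts, slow myosin, had a log2 fold change of -0.15 (standard error 0.10, adjusted p = 0.289), the slow troponin genes TNNI1 and TNNC1 had -0.20 and -0.06, and MYL3 had -0.04. With the 48 muscle libraries in a single fit only 2 members of the list were higher and 1 lower, and without the 3 cows that had a library of a second counting batch 7 were higher and 1 lower. Without cow 829, 3434 or 3445 the number lower was 2.

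**Figure D2:**
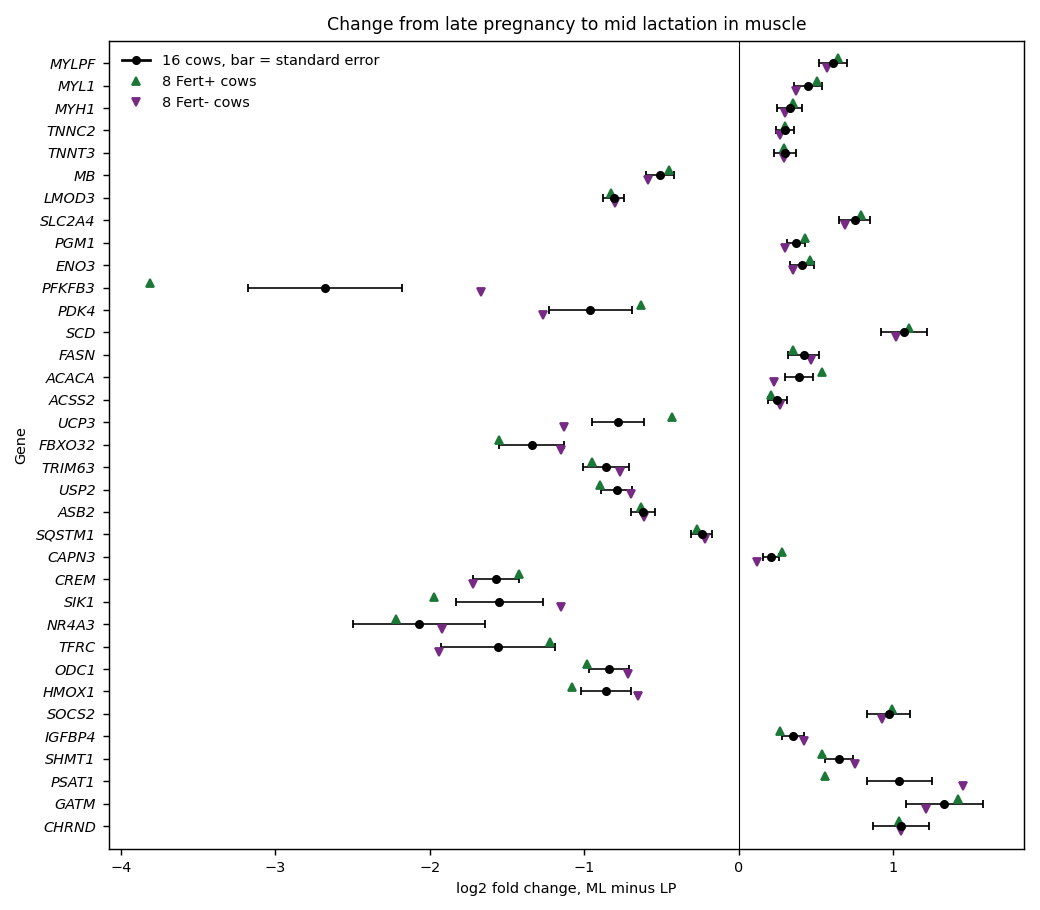
Log2 fold change of 35 genes between ML and LP in muscle, as black points with the standard error over 16 cows, and the same in the 8 Fert+ cows (triangles up) and 8 Fert- cows (triangles down). The changes of both groups lie on the same side of 0 for every gene shown, and PFKFB3 has the widest distance between them, at -3.81 and -1.67.

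Genes of glucose use moved in both directions. SLC2A4 encodes GLUT4, the insulin-dependent glucose transporter of muscle and fat. It was at 60.2 CPM in the lowest, 87.6 in the median and 136 in the highest LP library, and at 95.1, 151 and 181 CPM at ML. It rose in 15 of 16 cows, and 12 ML libraries lay above the highest LP library (log2 fold change 0.75, standard error 0.10, adjusted p = 6.21e-05). Of 26 tested members of the glycolysis and glycogen list 8 were higher and 2 lower in ML, with a median log2 fold change of 0.19. These were 30.8% and 7.69%, against 11.3% and 13.4% of identifiers with a symbol. Beside SLC2A4, those higher were PGM1, ENO3, PGAM2, FBP2, PKM2, GPI and TPI1. PGM1, which links glycogen to glycolysis, rose by 0.37 on the log2 scale (standard error 0.06, adjusted p = 0.000488) and ENO3, the muscle enolase, by 0.41 (standard error 0.08, adjusted p = 0.00143).

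The largest fall among named genes was also in this list. PFKFB3 makes fructose-2,6-bisphosphate, the strongest activator of phosphofructokinase. It was at 452 CPM in the lowest, 1130 in the median and 2744 in the highest LP library, and at 22.7, 200 and 1227 CPM at ML. The level fell in 15 of 16 cows, and 12 of 16 ML libraries were below the lowest LP library, so that the groups overlapped in the other 4. Cow 996 was the exception, with the lowest LP and the highest ML value. The log2 fold change was -2.68 (standard error 0.50, adjusted p = 0.00205), a level 6.40 times higher in LP, and -3.05 without cows 430 and 996. SLC16A1, a lactate and ketone body transporter, fell by 0.30. With all 48 muscle libraries in a single fit only 1 member of the list was higher and 1 lower. Without the cows of the second counting batch 4 were higher and 2 lower, and without cow 430 13 were higher.

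PDK4, the kinase that shuts pyruvate out of oxidation, was lower in ML. Its level was 174 CPM in the lowest, 1573 in the median and 3609 in the highest LP library and 244, 728 and 1985 CPM at ML. It fell in 14 of 16 cows, with groups that overlapped widely (log2 fold change -0.96, standard error 0.27, adjusted p = 0.0223). The LP library of cow 430 held the lowest value, and without cows 430 and 996 the log2 fold change was -1.19. UCP3, an uncoupling protein of muscle mitochondria that follows fatty acid supply, fell by 0.78 (standard error 0.17, adjusted p = 0.0051), from a median of 310 CPM to 156 CPM, and ACSL1, which activates long-chain fatty acids, by 0.23 (standard error 0.07, adjusted p = 0.0286). Against these 3, ECI1, ACADVL and CPT1B rose by 0.27, 0.18 and 0.23. Of 17 tested members of the fatty acid uptake and oxidation list 3 were higher and 3 lower, 17.6% each. Among identifiers with a symbol the shares were 11.3% and 13.4%. The number higher rests on single cows: it was 7 without cow 430, 5 without cow 996, 8 without both, and 1 without cow 33, 164, 756, 1179 or 3445.

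Among enzymes of fatty acid synthesis 4 of 7 tested members were higher (57.1%, against 11.3% of identifiers with a symbol) and none lower. The median log2 fold change was 0.25. SCD, the delta-9 desaturase, was at 11.2 CPM in the lowest, 24.7 in the median and 49.1 in the highest LP library and at 36.3, 50.7 and 130 CPM at ML. It rose in 15 of 16 cows, and 8 ML libraries lay above the highest LP library (log2 fold change 1.07, standard error 0.15, adjusted p = 0.000189). Fatty acid synthase (FASN) rose by 0.42 (standard error 0.10, adjusted p = 0.00893), acetyl-CoA carboxylase (ACACA) by 0.39 (standard error 0.09, adjusted p = 0.00506) and ACSS2, which activates acetate, the main carbon source of fat in ruminants, by 0.25 (standard error 0.06, adjusted p = 0.011). Markers of fat cells were detected too. FABP4, the fatty acid binding protein of adipocytes, rose by 1.12 (standard error 0.26, adjusted p = 0.0077) from a median of 1.94 CPM to 5.36 CPM. Adiponectin (ADIPOQ), a hormone of adipocytes, had medians of 4.56 CPM and 8.79 CPM and did not pass the test (log2 fold change 0.52, adjusted p = 0.338). FABP4 was the 1 adipocyte marker of 5 tested that was called (20%), and all 5 had positive fold changes. The summed level of the 6 markers with an identifier ran from 557 to 1174 CPM at LP and from 579 to 1260 CPM at ML, mostly from GPD1, which muscle fibres express too. The part of fat cells in the rise of the lipogenic genes was not tested.

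The ubiquitin ligases of muscle wasting fell. FBXO32 was at 76.9 CPM in the lowest, 169 in the median and 354 in the highest LP library and at 41.1, 70.4 and 198 CPM at ML. In 10 of 16 ML libraries it was below the lowest LP library, and it fell in 14 cows, the exceptions being cows 430 and 996 (log2 fold change -1.34, standard error 0.21, adjusted p = 0.000428). TRIM63 was at 79.4, 143 and 218 CPM at LP and at 49.5, 74.6 and 167 CPM at ML, and fell in 15 of 16 cows (log2 fold change -0.86, standard error 0.15, adjusted p = 0.000996). The day after calving the medians were 430 CPM for FBXO32 and 973 CPM for TRIM63.

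Other genes of protein turnover fell with them. ASB2, part of a muscle ubiquitin ligase, fell in 15 cows (log2 fold change -0.62, standard error 0.08, adjusted p = 3.66e-05), and USP2, a deubiquitinase, in 16 of 16 (log2 fold change -0.79, standard error 0.10, adjusted p = 4.45e-05). NFE2L1, the transcription factor of proteasome genes, fell in all but cows 430 and 996 (log2 fold change -0.61, standard error 0.08, adjusted p = 4.45e-05). The autophagy receptor SQSTM1 fell by 0.24 and the proteasome subunits PSMD7 and PSMD4 by 0.21 each. Of 13 tested members of the protein breakdown and autophagy list 3 were lower (FBXO32, TRIM63 and SQSTM1) and 2 higher. These were 23.1% and 15.4%, against 13.4% lower and 11.3% higher among identifiers with a symbol. Those higher were CAPN3, the muscle calpain (log2 fold change 0.21, standard error 0.05, adjusted p = 0.00705), and MSTN, myostatin, which restrains muscle growth (log2 fold change 0.62, standard error 0.20, adjusted p = 0.0386), and in 11 of the 16 tests that left out 1 cow only 1 member was higher. Of 14 proteasome subunits 2 were lower (14.3%, against 13.4% of identifiers with a symbol) and none higher, with 11 of 14 negative. With the 48 muscle libraries in a single fit no subunit was lower.

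Several of the genes with large falls encode regulators and receptors. CREM, a cAMP-responsive transcription factor, was at 11.5 CPM in the lowest, 27.7 in the median and 61.6 in the highest LP library and at 4.48, 10.4 and 17.4 CPM at ML. It fell in 16 of 16 cows, with 10 ML libraries below the lowest LP library (log2 fold change -1.57, standard error 0.15, adjusted p = 7.36e-06). SIK1, a salt-inducible kinase, fell by 1.55 (standard error 0.28, adjusted p = 0.00159) and the nuclear receptor NR4A3 by 2.07 (standard error 0.43, adjusted p = 0.00388). Of 15 tested immediate early genes only NR4A3 and FOSL2 (log2 fold change -0.83, adjusted p = 0.0247) were lower and none was higher, which is 13.3% against 13.4% lower among identifiers with a symbol. ODC1, the rate-limiting enzyme of polyamine synthesis, fell by 0.84 (standard error 0.13, adjusted p = 0.000411), and the lipin LPIN1, a phosphatidate phosphatase and co-activator, by the same 0.84 (standard error 0.18, adjusted p = 0.00505). HMOX1, haem oxygenase 1, fell in 15 of 16 cows (log2 fold change -0.86, standard error 0.16, adjusted p = 0.00176), the exception being cow 996. Other named genes of large fall were GREB1 (-2.32), SLC16A6 (-1.96), the transferrin receptor TFRC (-1.56), the amino acid transporter SLC7A8 (-1.54), METTL21E (-1.49) and the histamine receptor HRH2 (-1.45). Their adjusted p-values ran from 8.47e-05 in SLC16A6 to 0.0101 in TFRC. The clock genes PER1 and NR1D1 did not pass the test (adjusted p = 0.0854 and 0.705), with log2 fold changes of -0.55 and -0.12. The hours at which biopsies were taken are not given in the sources used here.

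**Figure D3:**
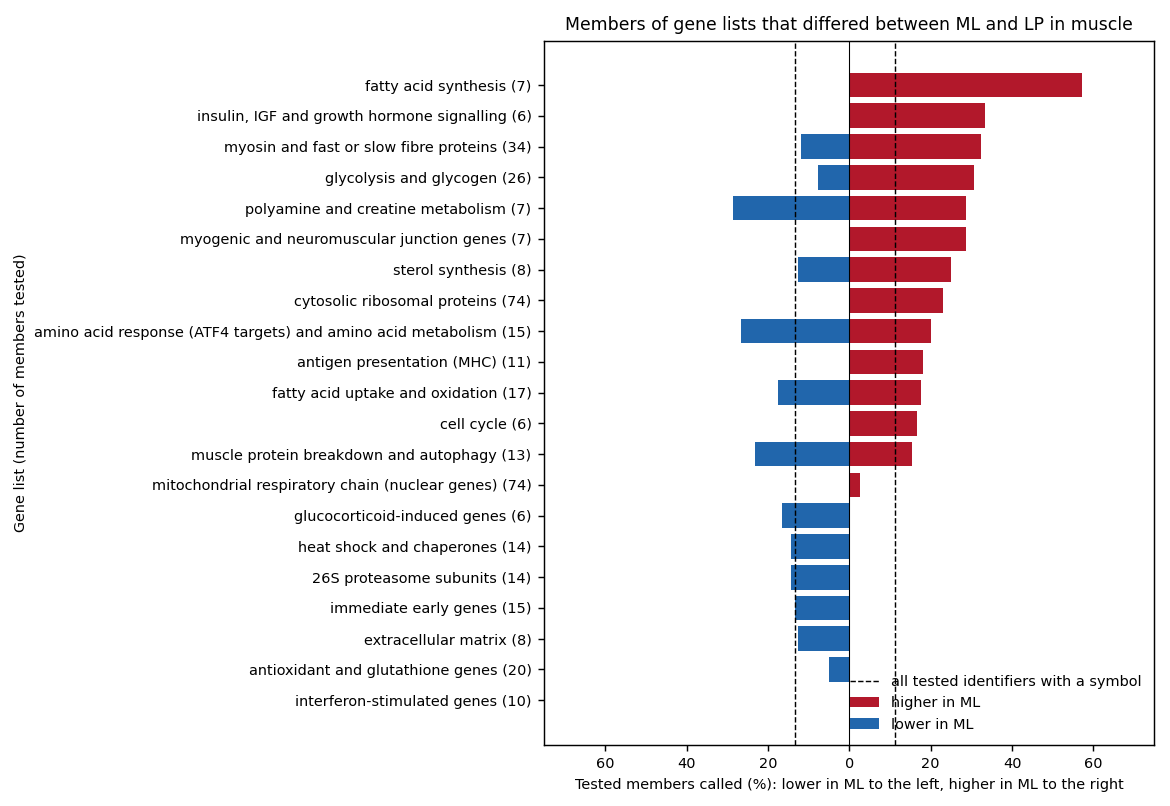
Share of tested members that was DE in muscle for the 21 gene lists with at least 5 tested members, cell type marker lists left out, higher in ML to the right and lower to the left, with the number tested in parentheses and dashed lines at 11.3% and 13.4%, the shares among all tested identifiers with a symbol. Among the lists drawn, fatty acid synthesis has the longest bar to the right, 4 of 7 members, and interferon-stimulated genes have no bar.

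Among genes of growth and amino acid synthesis some rose and some fell. SOCS2, which is induced by growth hormone and restrains its receptor, was at 2.93 CPM in the lowest, 6.50 in the median and 20.2 in the highest LP library and at 6.22, 13.6 and 28.1 CPM at ML. It rose in 16 of 16 cows, although the groups overlapped (log2 fold change 0.97, standard error 0.14, adjusted p = 0.000135). IGFBP4, a carrier of insulin-like growth factors, rose by 0.35 (standard error 0.07, adjusted p = 0.00193). SOCS2 and IGFBP4 were the 2 called of 6 tested genes of insulin, IGF and growth hormone signalling. That was 33.3% higher, against 11.3% of identifiers with a symbol, and none of the 6 had a negative fold change. The serine and glycine enzymes SHMT1, PSAT1 and PSPH rose by 0.65, 1.04 and 0.85 (adjusted p = 0.000105, 0.00225 and 0.0417). Levels of the first 2 were low, with medians of 2.69 CPM at LP and 4.09 CPM at ML for SHMT1. PSAT1 had medians of 0.667 CPM and 1.18 CPM and rose in 14 of 16 cows. SHMT1 was higher in 16 of 16 cows. The transcription factor ATF4, which drives amino acid synthesis and transport, fell by 0.33 (standard error 0.07, adjusted p = 0.00184) and the transporter subunit SLC3A2 by 0.50 (standard error 0.10, adjusted p = 0.00269). The amino acid list, which does not hold SHMT1, had 3 of 15 tested members higher (PSAT1, PSPH and PYCR1) and 4 lower (ATF4, SLC3A2, VLDLR and GLUL). These were 20% and 26.7%, against 11.3% and 13.4% of identifiers with a symbol. There were 6 higher without cow 430, 7 without cows 430 and 996, and 1 without cow 33, 164, 419, 782, 1000, 3434 or 3847.

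GATM, the first enzyme of creatine synthesis, was at 1.51 CPM in the lowest, 5.83 in the median and 16.8 in the highest LP library and at 3.26, 14.6 and 46.0 CPM at ML. It rose in 15 of 16 cows, with 6 ML libraries above the highest LP library (log2 fold change 1.33, standard error 0.25, adjusted p = 0.00201). ITGB1BP3, the nicotinamide riboside kinase of muscle, rose from a median of 361 CPM to 837 CPM (log2 fold change 1.29, standard error 0.24, adjusted p = 0.00165), and the glypican GPC3 from 5.40 CPM to 11.4 CPM (log2 fold change 1.14, standard error 0.14, adjusted p = 4.68e-05). CHRND, a subunit of the acetylcholine receptor at the neuromuscular junction, rose by 1.05 (standard error 0.18, adjusted p = 0.000518) and the myogenic factor MYOG by 0.55 (standard error 0.16, adjusted p = 0.0281). Genes with small but regular changes completed those with the smallest p-values. DCUN1D2 (log2 fold change -0.53, adjusted p = 3.03e-06) and the monoamine oxidase MAOB (-0.75, adjusted p = 1.77e-05) fell in 16 of 16 cows, and the small GTPase RHOU (-0.86, adjusted p = 3.66e-05) in 15. The cyclophilin PPIA (0.49, adjusted p = 8.47e-05), a gene with many copies, and IGFN1, a protein of the sarcomere (0.45, adjusted p = 9.17e-05), rose in 16 of 16, and the prostaglandin D2 receptor PTGDR (0.74, adjusted p = 4.45e-05) in 15. The other named genes of large rise were ANXA8 (1.32), ABCG4 (1.23) and HPDL (1.14), with medians at ML of 3.25, 2.80 and 1.17 CPM. Of the genes without a symbol, ENSBTAG00000003265 and ENSBTAG00000024633 rose by 0.50 and 0.67, and ENSBTAG00000033603 and ENSBTAG00000019388 fell by 0.57 and 0.75, each in 16 of 16 cows.

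Of 74 tested identifiers of cytosolic ribosomal proteins, the subunits that carry out translation, 17 were higher and none lower. That was 23.0% higher, against 11.3% of identifiers with a symbol. Positive fold changes were found in 71, and the median log2 fold change was 0.16. RPS20 rose by 0.44 (standard error 0.09, adjusted p = 0.00181), and 2 identifiers of RPS19 by 0.34 and 0.30. Some of these identifiers are near-identical copies, whose counts depend on how shared reads were placed. The count rests on single cows: it was 50 without cow 430, 32 without cow 996 and 59 without both, and between 11 and 16 when any other cow was left out. Without the cows of the second counting batch it was 5. Of 74 tested nuclear genes of the respiratory chain 2 were higher (NDUFS7 and SDHB, 2.7%) and 53 positive, with a median of 0.04. Here 14 were higher without cow 430, 3 without cow 996 and 28 without both.

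Many other lists were near the shares of all identifiers with a symbol (11.3% higher and 13.4% lower) or below them. Further above the share higher were smooth muscle and pericyte markers (33.3%), polyamine and creatine (28.6%), sterol synthesis (25%) and antigen presentation (18.2%). Further above the share lower were regulators of mitochondrial biogenesis (50%) and polyamine and creatine (28.6%). Each of these shares rests on 2 called genes. No interferon-stimulated gene was called among 10 tested, and 1 of 20 antioxidant genes (HMOX1) was lower. Among 8 tested extracellular matrix genes SPARC, a collagen-binding protein, was lower (log2 fold change -0.46, standard error 0.09, adjusted p = 0.00143). Glutamine synthetase (GLUL) fell by 0.60 (standard error 0.16, adjusted p = 0.0136) and was the 1 called of 6 glucocorticoid-induced genes. GLUL rose in cows 430, 756, 982 and 996, and its call was lost without the cows of the second counting batch. The small heat shock proteins HSPB6 and HSPB8 fell by 0.24 and 0.29 as the 2 called of 14 chaperones. With the 48 muscle libraries in a single fit no member of these 2 lists was lower. Of 8 sterol synthesis genes DHCR7 and HMGCS1 rose by 0.19 and 0.17, calls that most alternatives lost. Of 11 genes of antigen presentation 1 of the 2 identifiers of BOLA and BOLA-DMA rose by 0.23 and 0.30, and BOLA is one of several similar genes. Of 6 cell cycle genes MCM5, a subunit of the replicative helicase, rose by 0.31. The 4 tested regulators of mitochondrial biogenesis held 2 that fell, LPIN1 and the muscle subunit of AMP-activated kinase PRKAG3 (log2 fold change -0.36, standard error 0.07, adjusted p = 0.000814). The polyamine and creatine list had 2 of 7 members higher (GATM and CKM) and 2 lower (ODC1 and its antizyme OAZ1). None of the 3 macrophage, 3 endothelial or 4 fibroblast markers was called. The macrophage markers summed to between 3.53 and 23.8 CPM at LP and between 2.81 and 14.7 CPM at ML, and the fibroblast markers to between 170 and 411 CPM and between 177 and 335 CPM. Of 6 markers of smooth muscle and pericytes LMOD1 and SYNPO2 were higher, by 0.41 and 0.34, and the summed level had medians of 8592 CPM at LP and 8513 CPM at ML. This list holds DES, which is also in the skeletal muscle list, so the sum is no measure of smooth muscle or pericytes alone. None of the 3 tested B and plasma cell markers or the 2 tested markers of nerve was called. No marker of neutrophils, erythroid cells, T and NK cells or epidermis passed the filter on low counts.

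Albumin and fibrinogen, secreted liver proteins, had higher transcript levels in muscle at ML. Albumin (ALB) was at 0.109 CPM in the lowest, 0.423 in the median and 3.69 in the highest LP library and at 0.125, 6.25 and 110 CPM at ML, and it rose in 14 of 16 cows (log2 fold change 4.37, standard error 0.75, adjusted p = 0.00123). The ML levels were spread over the whole range, with 110 CPM in cow 33, 106 in cow 1179, 52.2 in cow 996, 51.8 in cow 1000 and 41.7 in cow 3445, and 0.125 CPM in cow 982. The day after calving ALB was at 0 CPM in the lowest, 0.355 in the median and 24.9 in the highest muscle library, the last in cow 996. The fibrinogen chain FGB rose in 16 of 16 cows (log2 fold change 2.11, standard error 0.44, adjusted p = 0.00407). ALB and FGB were the 2 called of the 3 that passed the filter on low counts, out of 14 markers of the list. The filter took libraries of both time-points together, and ALB passed it mainly through its ML libraries. That ALB was tested at all thus depends on its level at ML, and its fold change rests on few reads at LP. All 14 together summed to between 1.99 and 9.84 CPM at LP and between 2.81 and 243 CPM at ML, and at EL they had a median sum of 4.94 CPM and a highest of 52.3 CPM. The third, APOA1, had medians of 0.884 CPM and 0.945 CPM and was higher in 8 of 16 cows. Of the defining markers, AHSG and APOC3 were at 0 in 13 of 16 LP libraries each.

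**Figure D4:**
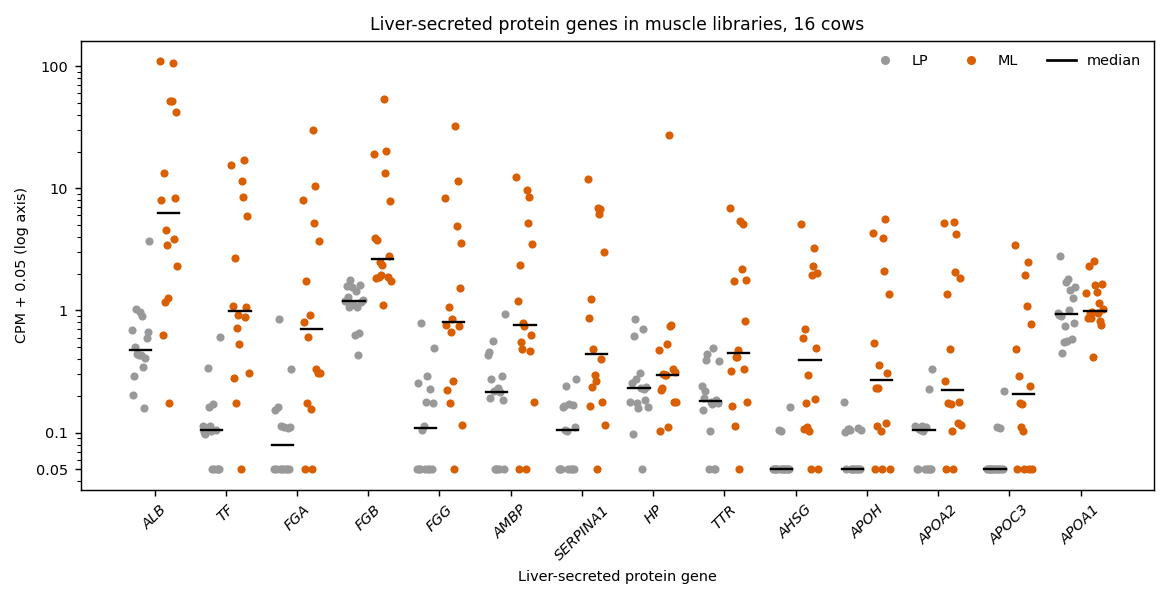
Level of 14 liver-secreted protein genes in each muscle library at LP (grey) and ML (orange), as CPM + 0.05 on a log axis, with black lines at the medians of 16 cows. ALB reaches 110 CPM at ML against 3.69 at LP, and APOA1 has nearly the same median at both time-points.

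Liver of the same cows was biopsied at each time-point. Muscle ALB at ML was between 0.000132% and 0.105% of the ALB level in liver of the same cow and time-point, with a median of 0.00532%. Multiplied by that share, the liver level of FGB came to a median of 1.34 CPM, beside a median rise in muscle of 1.31 CPM. For transferrin (TF) these were 0.959 and 0.909 CPM, and for the complement component C3, which rose by 1.29 on the log2 scale (standard error 0.30, adjusted p = 0.00702), they were 1.59 and 3.31 CPM. Some other members of the marker list were about as close, such as SERPINA1 at 0.31 and 0.30 CPM. Others were less close, on both sides: 1.06 and 0.604 CPM for FGA, 0.992 and 0.647 for FGG, 0.432 and 0.711 for AMBP, and 0.16 and 0.35 for AHSG. For some other genes that liver also expresses the share came to far less than the rise, at 0.133 CPM beside 9.24 CPM for GATM, 0.0194 beside 6.44 CPM for GPC3, 0.0604 beside 1.42 CPM for SHMT1 and 0.00629 beside 27.3 CPM for SCD. Others lay between, at 0.323 beside 0.901 CPM for CFB, 0.147 beside 0.375 for CFI, 0.242 beside 0.95 for RBP4 and 0.0673 beside 0.173 for C6. For APOA1 the share came to 0.0115 CPM. The source of these liver-type transcripts was not tested.

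The change was compared between the fertility groups as an interaction of time-point and group over 12380 genes. RGS2 alone was called (0.00808%), and 737 genes had an unadjusted p under 0.05. RGS2, a regulator of G protein signalling, fell in Fert+ cows (log2 fold change -1.76) and had 0.28 in Fert- cows, a difference of -2.03 (standard error 0.27, adjusted p = 0.00397). The call was lost without the cow block and without the cows of the second counting batch. In Fert+ cows alone 532 genes were DE and in Fert- cows alone 481. PFKFB3, with the log2 fold changes of -3.81 and -1.67 given above, had a difference of -2.14 (standard error 0.78) and did not pass this test (adjusted p = 0.707).

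The change was also compared with that in liver of the same cows. Over 13963 genes 2461 (17.6%) differed, 1420 (10.2%) with the more positive change in muscle and 1041 (7.46%) with the more negative. With RLE size factors these were 1125 and 1213, so the balance of directions depends on the scaling. Genes near 0 in muscle could enter this test through their liver libraries, since the filter on low counts took both tissues together. In muscle alone 11980 genes passed the filter. How many of the 2461 entered through liver was not counted. Without the cows that had a muscle or liver library of the second counting batch, which left 9 cows, 769 genes differed (399 and 370). FBXO32 fell in muscle and rose in liver by 0.72 (standard error 0.12, adjusted p = 0.00078), a difference of -2.03 (adjusted p = 1e-06). CREM and PFKFB3, with liver changes of -0.01 and -0.35 that did not pass the test there (adjusted p = 0.957 and 0.104), differed by -1.54 (adjusted p = 1.5e-06) and -2.31 (adjusted p = 0.00143). USP2 fell in both, by 0.79 in muscle and by 1.69 in liver, a difference of 0.94 (adjusted p = 0.00979). For SOCS2 and SCD the differences were 0.14 and -0.29 and did not pass the test (adjusted p = 0.762 and 0.762), with changes in liver of 0.85 and 1.38. The 5 genes with a symbol and the smallest p in this test were VTN, MGC137014, GC, APOH and AHSG. Their medians in muscle at ML were at most 0.522 CPM, and in muscle alone none passed the filter on low counts.

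**Figure D5:**
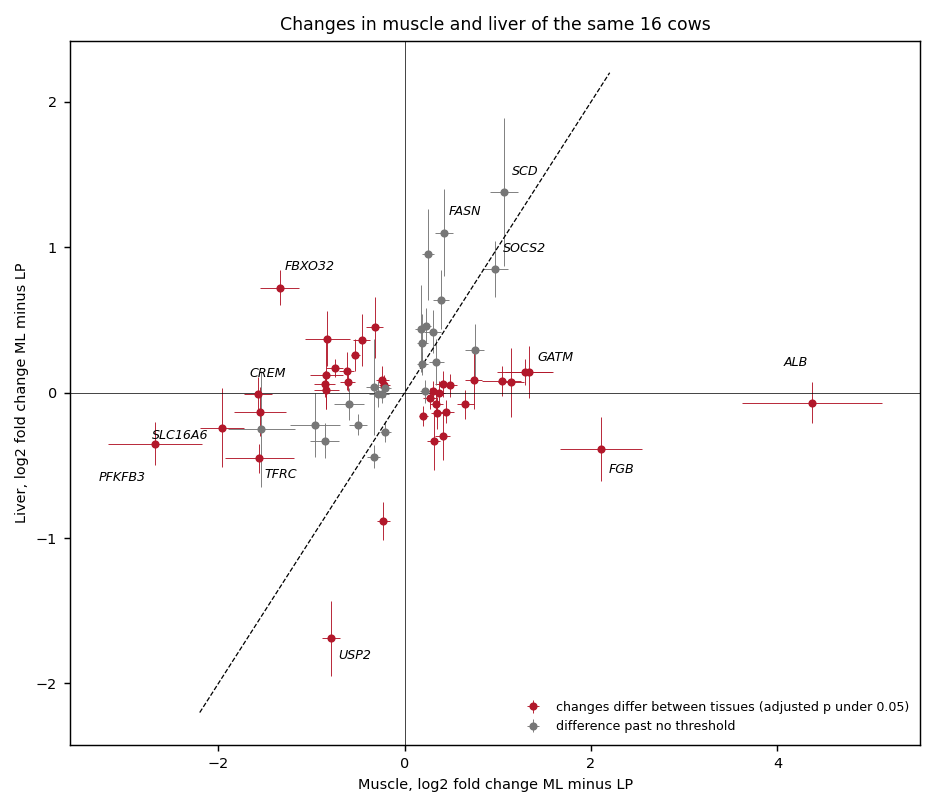
Log2 fold change between ML and LP in muscle (x axis) and liver (y axis) for 63 of the 88 named DE genes of muscle in the test between tissues, those that also passed the filter on low counts in liver alone, with standard errors and a dashed line of equal change. The 39 genes in red differed between the tissues at an adjusted p under 0.05, among them FBXO32 and PFKFB3, and SOCS2 lies near the line.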

How the data were processed

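RNA of 96 biopsies was sequenced, and 32 muscle libraries were compared here. The authors trimmed read pairs with Trimmomatic, aligned them with STAR to Bos taurus UMD3.1 with Ensembl70 genes, kept proper pairs with Samtools and counted them with featureCounts. The deposited values are raw counts of read pairs per gene. Also deposited were 2 tables with 96 columns that carry no sample name, which were left unused. Whether counting used strand is not given in the sources used here. No 2 of 112 pairs of libraries within a group held identical counts.

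Counts were tested with edgeR 4.0.16 under R 4.3.3 (filterByExpr, TMM, quasi-likelihood with robust estimation, two-sided, cow as a block). Alternatives used limma-voom (limma 3.58.1), DESeq2 1.42.0, other scalings, filters and sets of libraries. Tests were tried on simulated counts first. Plots were drawn with matplotlib 3.10.9 in Python 3.11.15. CPM means counts relative to TMM-scaled library totals, without gene length. LP and ML libraries of a cow come from the same animal by their labels, which is the pairing. After removal of group means they correlated with a median r of 0.271 (14 of 16 pairs over 0.1, lowest 0.06), against a median of -0.0408 between cows. The match was partial: in 9 of 16 cows the LP library correlated best with the ML library of its own cow. Symbols come from the study's supplementary tables.

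The members, the 36 gene lists and the rules were chosen with earlier results of these data known. Named were, among called genes with a symbol, at least 1 CPM on average and the same direction in at least 14 cows, the 10 largest changes and the 8 smallest p-values per direction. In each list up to 4 called members were named, or the 2 most abundant where fewer than 2 were called, with the 5 smallest p-values of the 2 difference tests and 2 identifiers without a symbol per direction. A gene named outside this rule (PSPH, MSTN, TPM3, other members of lists and the slow fibre genes) was chosen after its values were seen, to account for a count. The alternatives without cows 430 and 996 and without the cows of libraries counting at least 10 of the batch genes were chosen after seeing the data. Some genes that this rule names are not reported here.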

Additional observations from a re-analysis of the deposited data

Results flagged for a closer look

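In 16 of 176 comparisons of a named gene within a fertility group, a single cow's change between LP and ML lay far from those of the other 7 cows by Dixon's criterion, which chance meets in about 1 of 20 groups. Changes are given as log2(CPM + 1), ML minus LP, beside the median of the other cows of the group. Genes measured in the same libraries are not independent, so that a cow that stands apart is counted many times.

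Most of these changes were in Fert+ cow 430. Of its fast fibre genes 4 lay far from the other cows with negative changes, at -0.33 for MYLPF (others 0.72), -0.45 for MYL1 (0.63), -0.40 for TNNC2 (0.38), -0.35 for TNNT3 (0.39), while MYH1 went from 49526 to 87438 CPM. The enolase ENO3 had -0.32 (0.51). ITGB1BP3 had -1.09 (1.57) and GPC3 -0.54 (1.15). PDK4 had 2.21 (-1.32) and NFE2L1 0.20 (-0.72). Fert- cow 996 had -0.40 for SCD (1.39), -0.95 for DCUN1D2 (-0.42), 1.76 for SOCS2 (0.88), 1.08 for HMOX1 (-0.98) and 0.17 for NFE2L1 (-0.73). Fert- cow 829 had -4.08 for SLC16A6 (-1.32), and Fert+ cow 33 had 1.33 for PSAT1 (0.19). Leaving out cows 430 and 996 kept the direction of each of these genes, and the fold change of PDK4 was -1.19 in place of -0.96. The cause was not tested.

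The change of RGS2 differed between the fertility groups by -2.03 (Fert+ minus Fert-, standard error 0.27, adjusted p = 0.00397). It was the only gene called of 12380, and no gene was called without the cow block or without the cows of the second counting batch.

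The change from LP to ML differed between muscle and liver for VTN (5.71), AHSG (5.63), GC (5.36), APOH (5.36) and MGC137014 (5.28), given as the log2 change in muscle minus that in liver. In muscle these genes were at or close to 0 CPM in the median LP library and at most 8.22 CPM at ML, in GC. The fitted differences therefore depend on the small count that edgeR adds to each library and are no measure of fold. In liver their log2 fold changes ran from -0.47 in APOH to -0.08 in MGC137014.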

How the results depend on the processing

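Of 1953 DE genes 1345 were called whichever 1 of the 16 cows was left out, and no gene called both in the main test and in an alternative changed direction. The counts ranged over 1612 to 2570 DE genes, 748 to 1327 higher and 840 to 1243 lower when 1 cow was left out, the most without cow 430. Without cows 430 and 996, 1515 genes were lower. Without the cow block 1476 genes were DE, 1417 of them shared with the paired test (72.6% of its calls and 96.0% of the others). The exact test with one common dispersion and no block called 1189 (575 higher, 614 lower), and the fit of 48 muscle libraries 1120 (513 and 607). Without the cows of the second counting batch 1159 were called (526 and 633), also with fewer samples by construction. With all cows and batch as a term 1923 were called, and 96.5% of the main calls were shared. The 8 Fert+ cows alone gave 532 (213 and 319) and the 8 Fert- cows 481 (209 and 272), with fewer samples by construction. For the other changes the cause was not tested. RLE factors, no gene filter, no robust estimation, DESeq2, limma-voom and a batch term gave between 1833 and 2045. Without a gene filter 251 genes differed by at least 2-fold in place of 73. The interaction called 0 genes without the cow block and 0 without the cows of the second counting batch. The difference from liver called 2461 genes, 1891 without the block, and 769 without batch cows, of which 9 cows were left. Over the named genes no called fold change reversed. HMGCS1 and DHCR7 were called in 7 and 10 of 30 alternatives. Depth was similar in all libraries, but genes under about 1 CPM, the liver-secreted genes among them, rest on few reads.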
